A study of Mus musculus with 20 samples.

Results

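Irf7 is the gene for interferon regulatory factor 7, a transcription factor that, once phosphorylated, moves to the nucleus and switches on type I interferon genes. It was selected on its measured level, which steps up at the highest starch dose, so its own values by diet are given as a description without a test. Irf7 was 1 of the 12701 genes counted by RNA sequencing in 20 inbred C57BL/6 mice, each sampled at a segment of the proximal colon (PC). After weaning, all mice ate the Total Western Diet (TWD), which imitates the nutrient intake of people in the United States, for 6 weeks. For 3 further weeks resistant potato starch (RPS) made up 0, 2, 5, or 10% of the TWD. RPS is a raw starch that partly escapes digestion and feeds bacteria of the large intestine. The 0% RPS mice, which stayed on the TWD alone, are the control group, and each diet had 5 libraries. The libraries held 20581013 to 35083751 counts, of which 1915 to 7324 belonged to Irf7 (76.4 to 277 CPM, counts scaled to library size). The segment contained the whole gut wall, so more cells of a type and more RNA per cell cannot be told apart in any value below. In 3 libraries (2% RPS replicate 5 and 10% RPS replicates 4 and 5) the label number lay outside the run of the others, and where a named gene passes or fails the test only with them, its value without them is given.

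In most cells IRF7 protein is scarce at rest, and its gene is itself switched on by interferon. Sensors of foreign or misplaced nucleic acid signal through adaptors and kinases that phosphorylate IRF3 and IRF7, and plasmacytoid dendritic cells, which make large amounts of type I interferon, hold much IRF7 beforehand. The genes that interferon then switches on, the interferon-stimulated genes, encode proteins that block the copying, translation, or release of viruses. IRF proteins bind DNA at repeats of the letters GAAA, and the repeat GAAANNGAAA, in which N is any base, is the core of the interferon-stimulated response element.

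Irf7 (ENSMUSG00000025498) occupies chr7:140842619-140846398 on the minus strand of GRCm39, the assembly to which the reads had been mapped. Its canonical transcript in GENCODE M39 has 10 exons and 2397 bases. The stretch just before its transcription start is shown because interferon-stimulated promoters often carry the GAAANNGAAA repeat there. In the RefSeq promoter table, on GRCm38.p6 and the minus strand at chr7:141266425-141266674, the 250 bases before the start read as follows, with capitals on the string TATAAA, the core of the promoter element that positions the transcription machinery, found on the gene's strand.
Irf7 promoter: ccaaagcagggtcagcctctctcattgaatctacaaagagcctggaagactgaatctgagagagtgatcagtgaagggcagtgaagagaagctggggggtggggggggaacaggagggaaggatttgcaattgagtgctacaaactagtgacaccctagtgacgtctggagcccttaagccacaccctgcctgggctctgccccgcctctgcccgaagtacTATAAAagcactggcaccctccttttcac
The TATAAA string began 29 bases before the start in the RefSeq table. Of the 27025 genes with a promoter window of 300 bases (250 before and 50 after the start), 9.77% held that string on the gene's strand. GAAANNGAAA, searched on both strands, was not present in the Irf7 window. It was present in a window of 3.99% of the 27025 genes and of 19 of the 40 interferon-stimulated genes of the list used below that could be matched to the table. Within the Irf7 gene in GRCm39, and up to 2000 bases before its start, the string occurred at 2 places. These matches stood 376 bases after the start in GENCODE, in intron 1, and 641 bases after it, in the untranslated part of exon 2. Whether the GENCODE and RefSeq starts are the same position was not checked. They are printed on the gene's strand with 10 bases on either side and the match in capitals (its reverse complement where it lies on the other strand), beside a promoter match of 3 interferon-stimulated genes whose levels are given later.
Irf7 intron 1, GRCm39 chr7:140846003-140846032: actgtttaggTTTCATTTTCctgagatgca
Irf7 exon 2, GRCm39 chr7:140845738-140845767: tcacacttgtGAAACTGAAAttcctacctg
Isg15, GRCm38.p6 chr4:156200871-156200900: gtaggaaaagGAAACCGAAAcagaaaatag
Ifit1, GRCm38.p6 chr19:34640794-34640823: ccagtctcagTTTCAGTTTCtcactgctga
Oas3, GRCm38.p6 chr5:120777715-120777744: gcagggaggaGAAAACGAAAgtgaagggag
A match of letters is not a measured binding site.

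Irf7 stood near 2285 normalised counts without starch, was slightly higher at 2% and 5% RPS, and reached a mean of 5356 at 10% RPS. Normalised counts are counts divided by a size factor that corrects for sequencing depth. At 0% RPS the 5 libraries, in replicate order, had 2512, 2427, 2414, 2084, and 1985 normalised counts (2285 ± 234, SD, n = 5). At 2% RPS they had 2832, 2521, 4037, 2603, and 2250 (2848 ± 696). At 5% RPS they had 2718, 2820, 3084, 2628, and 2982 (2846 ± 187). At 2% RPS a single library, replicate 3, stood far above the other 4, whereas at 5% RPS the libraries lay close together. At 10% RPS the values were 7641, 3480, 7146, 3100, and 5414 (5356 ± 2064). The 10% RPS libraries thus fell into 3 high values and 2 that were little above the 5% RPS diet.

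**Figure D1:**
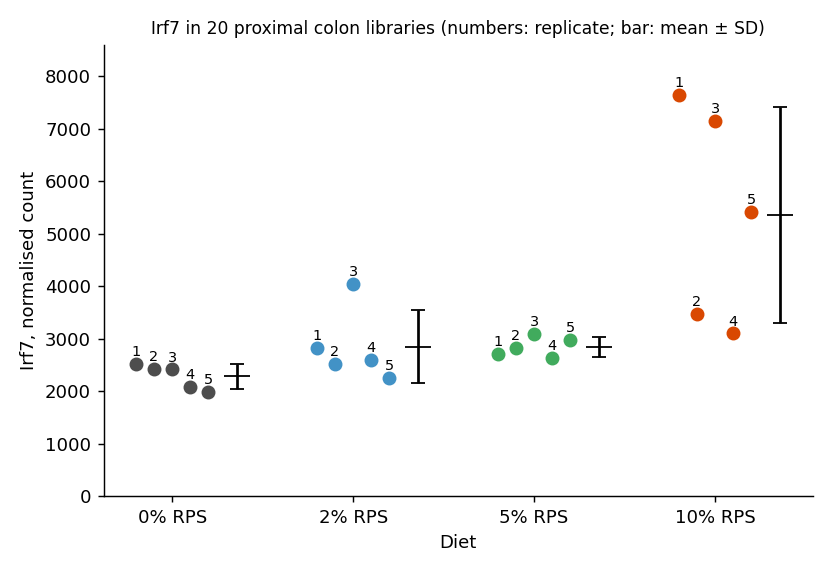
Irf7 in each of the 20 libraries, as normalised counts (y axis, from 0) by diet (x axis), with the replicate number above each point and the mean ± SD of 5 libraries as a bar. The 10% RPS libraries run from 3100 to 7641, and 2% RPS replicate 3, at 4037, lies above 2 of them.

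All 5 libraries at 5% RPS lay above all 5 at 0% RPS, a separation found for 182 of 12348 genes (1.47%) that averaged 10 normalised counts or more. All 10% RPS libraries lay above all 0% RPS libraries, as for 169 genes (1.37%). They also lay above all 5% RPS libraries, as for 55 genes (0.445%), with the lowest 10% RPS value at 3100 and the highest 5% RPS value at 3084. The step was not complete against the 2% RPS diet, because replicate 3 of that diet exceeded replicates 2 and 4 of the 10% RPS diet. Irf7 was therefore not among the 8 genes (0.0648%) whose 10% RPS libraries all lay above or all lay below the other 15. Among these, Slc35e1, Socs6, and Wdr26 were above and Ap4s1, Rpl32, Rps19, and Slc35d3 were below.

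The log2 fold change of Irf7 against 0% RPS was 0.32 ± 0.20 (SE, DESeq2) at 2% RPS, 0.32 ± 0.20 at 5% RPS, and 1.23 ± 0.20 at 10% RPS, the last equal to 2.34-fold. The SE comes from a spread estimate that all diets share for each gene. It therefore does not show that the libraries of Irf7 were closer together at 5% RPS and farther apart at 10% RPS. Without 2% RPS replicate 3, the value at 2% RPS was 0.16. Between 10% and 5% RPS the log2 fold change was 0.91 ± 0.20 (1.88-fold), and between 10% and 2% RPS it was also 0.91 ± 0.20. When each library was left out in turn, the value at 10% against 0% RPS stayed between 1.07 and 1.37, and without the 3 libraries with label numbers apart it was 1.41. The threshold was an adjusted p up to 0.05 together with a fold of at least 1.5 either way. It was met by 3 genes (0.0239%) at 2% RPS, 55 (0.438%) at 5% RPS, and 113 (0.900%) at 10% RPS, each against 0% RPS. Between 10% and 2% RPS 7 genes (0.0557%) passed. Between 10% and 5% RPS 1 gene passed (0.00796%), and with the edgeR quasi-likelihood test 0 genes did. The 1 gene that passed between 10% and 5% RPS was Irf7 itself. Irf7 was chosen on this step, so whether it passed is not counted as a result.

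The spread of Irf7 between mice also differed from diet to diet. The SD of its log2 normalised count was 0.15 at 0% RPS, 0.32 at 2% RPS, 0.094 at 5% RPS, and 0.59 at 10% RPS. Among the 5575 genes that averaged 1000 normalised counts or more, 99.4% had a smaller SD than Irf7 at 10% RPS and 95.1% at 2% RPS. At 0% and 5% RPS the shares were 56.0% and 47.2%, so that Irf7 was then about as even between mice as a typical gene of that level. The highest 10% RPS library held 2.47 times the Irf7 of the lowest, against 1.27 times at 0% RPS.

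The genes beside Irf7 on the chromosome did not pass the test at 10% against 0% RPS. Phrf1, which encodes a ubiquitin ligase, lies on the opposite strand and shares 63 bases of exon with the 3′ end of Irf7. Its log2 fold change was 0.04 ± 0.08 and its Pearson correlation (r) with Irf7 over the 20 libraries was 0.35. Of the 4686 different windows of 50 bases, the read length, in Irf7 transcripts, 14 (0.299%) also occurred in transcripts of another gene, which in each case was Phrf1. The library kit marks strand, but whether the counting used it is not given in the sources used here. Cdhr5, a protocadherin of the brush border of intestinal cells, begins the other side of a gap of 2598 bases and had a log2 fold change of 0.19 ± 0.10, with an r of 0.51. The next genes, Sct, which encodes the hormone secretin, and Deaf1, Rassf7, and Lmntd2, had log2 fold changes of 0.20, -0.11, 0.01, and -0.03 at 10% RPS, and r between -0.25 and 0.15.

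Among the interferon regulatory factors, Irf7 went from the fourth highest level on the TWD alone to the highest at 10% RPS. Levels of different genes were compared as RPKM, CPM divided by the length of the canonical transcript in kilobases. At 0% RPS Irf7 had 36.3 ± 3.45 RPKM (SD, n = 5) and was the fourth of the 8 family members measured, after Irf1 (65.8 ± 4.17), Irf3 (45.5 ± 3.32), and Irf2 (39.4 ± 8.35). It did not differ from Irf2 by more than the spread between libraries. At 2% and 5% RPS Irf7 was second, with 44.0 ± 10.8 and 43.8 ± 3.07 RPKM, within the spread of Irf3 (43.6 ± 2.01 at 2% RPS). At 10% RPS it was the highest, with 80.5 ± 30.4 RPKM, within its spread of Irf1 (76.1 ± 9.26).

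**Figure D2:**
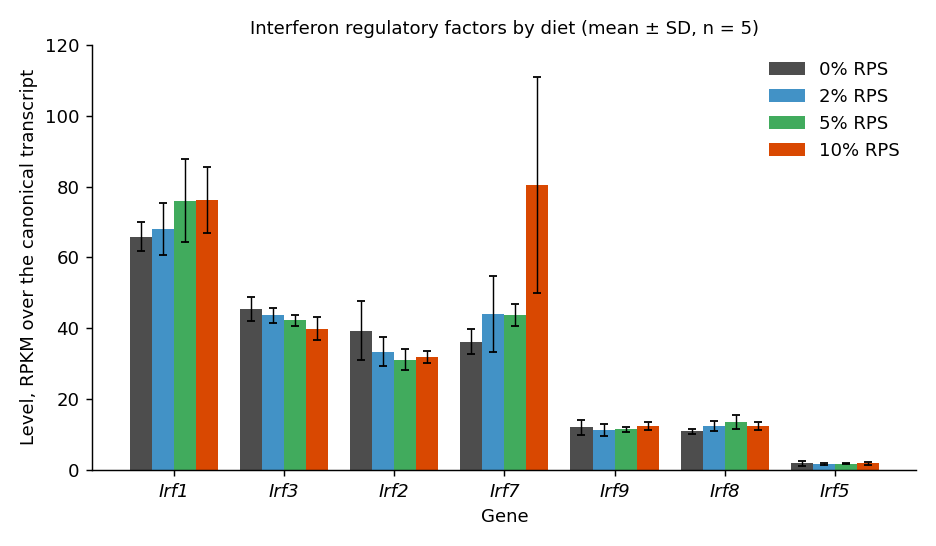
Levels of interferon regulatory factors (x axis) on each diet, in RPKM over the canonical transcript (y axis, from 0), as the mean and SD of 5 libraries. Irf7 goes from 36.3 to 80.5 RPKM between 0% and 10% RPS, and Irf1, the next highest there, from 65.8 to 76.1.

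Of the other 7 family members, 0 passed at any starch level with DESeq2 or with edgeR, and 3 had an unadjusted p under 0.05 at 10% against 0% RPS with each tool. Over all genes 18.8% had an unadjusted p under 0.05 there with DESeq2 and 18.0% with edgeR. The adjusted p and fold were met there by 0.900% of all genes with DESeq2 and 0.323% with edgeR. Counts of either kind given later for that comparison are to be read against those shares. A count of 0 passing members in a short list is near them. Irf1, an activator induced by interferon gamma, changed by 0.28 ± 0.10 on the log2 scale, short of the test (adjusted p = 0.0857, DESeq2). Irf3, the partner of IRF7 that is present in most cells at rest, had -0.12 ± 0.06 (adjusted p = 0.288). Irf9, which carries the interferon signal to DNA, had 0.12 ± 0.11 (adjusted p = 0.586). Irf8, which directs the development of dendritic cells, had 0.25 ± 0.10 (adjusted p = 0.117). At 5% RPS Irf8 had 0.37 ± 0.10, past the adjusted p (0.0262) but short of the fold. Irf2 and Irf5 had -0.22 and 0.05 at 10% RPS. The r of the 7 genes with Irf7 ran from -0.41 for Irf2 to 0.49 for Irf9. Of the 9 family genes listed, 8 were found among the genes counted, and Irf4 was not analysed here.

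Genes that lead to IRF7 activation made up the next list. Of 18 measured genes for nucleic acid sensors, adaptors, and kinases, 0 passed at 10% against 0% RPS with DESeq2 or edgeR, and 6 and 5 had an unadjusted p under 0.05. Their median log2 fold change was 0.07, against 0.00 for all genes. The kinase genes Tbk1 and Ikbke had 0.01 ± 0.10 and -0.14 ± 0.09. Myd88, the adaptor of the toll-like receptors that act through IRF7, had 0.06 ± 0.10. The sensor genes Ifih1 and Tlr3 had 0.24 ± 0.08 (adjusted p = 0.0672, DESeq2) and 0.24 ± 0.11 (adjusted p = 0.188). Trim25, which encodes a ubiquitin ligase that activates the RNA sensor RIG-I, passed on adjusted p alone, as 578 genes did (4.60%), with 0.26 ± 0.08 (adjusted p = 0.0395, DESeq2, and 0.106, edgeR). Its r with Irf7 was 0.81, the highest of the sensing genes. Trim25 ran from 4313 to 5233 normalised counts at 10% RPS and from 3347 to 4565 at 0% RPS, so the diets overlapped. Of the 21 sensing genes listed, 18 were found among the genes counted, and toll-like receptors 7, 8, and 9 were not analysed here. Of the 21 interferon genes listed, 0 were found among the 12701 genes counted. The products that IRF7 is best known to switch on are therefore not described.

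Of 12 measured genes for the receptors and signalling proteins through which interferon acts, 0 passed at 10% against 0% RPS with DESeq2 or edgeR, and 3 and 2 had an unadjusted p under 0.05. Their median log2 fold change was 0.08. Stat2, a transcription factor activated by interferon receptors, had 0.06 ± 0.10, and its r with Irf7 was -0.04. Stat3, which acts mainly downstream of interleukins, passed on adjusted p alone with 0.39 ± 0.11 (adjusted p = 0.0190, DESeq2). Ifnlr1, the receptor for type III interferon that epithelial cells carry, had 0.17 ± 0.09, with an r of 0.55. Jak2, a kinase of the interferon gamma receptor, had 0.20 ± 0.08.

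Of 13 measured genes that restrain IRF7 or interferon signalling, 0 passed at 10% against 0% RPS with DESeq2 or edgeR, and 3 and 2 had an unadjusted p under 0.05. Oasl1, whose protein blocks the translation of Irf7 mRNA in the mouse, came nearest to Irf7 in its pattern. It had 650 ± 150 normalised counts at 0% RPS and 965 ± 242 at 10% RPS, a log2 fold change of 0.57 ± 0.20 (adjusted p = 0.0812, DESeq2). Its 10% RPS libraries had 1355, 794, 915, 748.05, and 1013 normalised counts, and 2% RPS replicate 3 had 1382, the highest value of all 20. The r of Oasl1 with Irf7 was 0.72 over 20 libraries, 0.84 over the 15 libraries that were not on 10% RPS, and 0.71 for deviations from the diet means. Socs3, an inhibitor of cytokine receptors, had the largest log2 fold change of the list (0.88 ± 0.65) with an SD as large as its level at 0% RPS (530 ± 569 normalised counts). Eif4ebp1, which encodes a repressor of translation, had 0.16 ± 0.12.

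Zbp1 and Ifit1 were the interferon-stimulated genes that passed the test at the diet where Irf7 was highest. Of 50 measured members, 2 were higher and 0 were lower at 10% against 0% RPS with DESeq2, where 66 of all genes (0.525%) were higher, and 6 passed on adjusted p alone, as did 4.60% of all genes. With edgeR 0 passed (0.323% of all genes did), and each tool gave 12 at an unadjusted p under 0.05 (18.8% and 18.0% of all genes). The median log2 fold change was 0.14, and 34 of the 50 were above 0. Zbp1, a sensor of nucleic acid in the Z form that triggers cell death, had 1.05 ± 0.29 (adjusted p = 0.0138), and Ifit1, which binds foreign RNA and stops its translation, had 0.67 ± 0.21 (adjusted p = 0.0427). Neither passed without the 3 libraries with label numbers apart (0.80 and 0.73).

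Zbp1 was about as high at 5% RPS as at 10% RPS. The log2 fold change of Zbp1 was 1.08 ± 0.29 at 5% against 0% RPS and -0.03 ± 0.28 between 10% and 5% RPS. At 10% RPS Zbp1 had 252, 436, 515, 629, and 552 normalised counts, in replicate order, so that it was lowest in replicate 1, the library with the most Irf7. Its r with Irf7 was 0.24 over all libraries and -0.35 for deviations from the diet means. Ifit1 had 386, 527, 602, 409, and 491 normalised counts at 10% RPS and an r of 0.56 (0.32 for the deviations). Its log2 fold change between 10% and 5% RPS was 0.08 ± 0.21. Oas3, which makes the messenger that activates RNase L, had 0.90 ± 0.30 at 10% against 0% RPS (adjusted p = 0.0521, DESeq2) and an r of 0.66. Ifit1bl1 had 0.73 ± 0.39 (adjusted p = 0.282). Isg15, the ubiquitin-like protein that gives interferon-stimulated genes one of their common names, had 0.43 ± 0.36, Rsad2 had 0.23 ± 0.16, and Ifit3 had -0.38 ± 0.23.

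**Figure D3:**
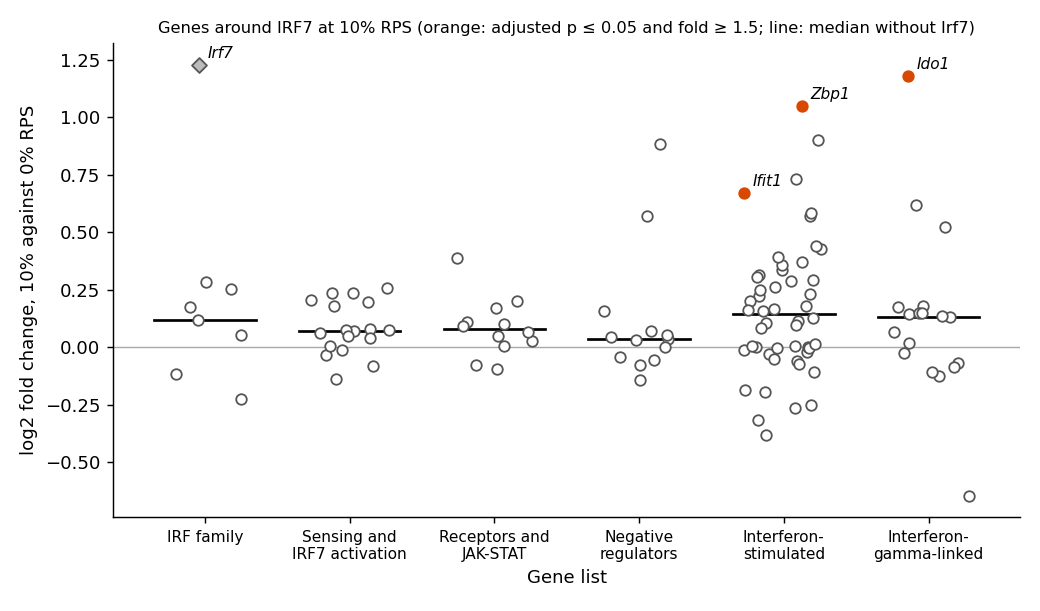
log2 fold change at 10% against 0% RPS (y axis) of each measured member of 6 gene lists (x axis), with orange points for genes past the adjusted p and the fold and a line at the median without Irf7. Zbp1, Ifit1, and Ido1 are orange, Irf7 is drawn as a grey diamond because it was chosen on this difference, and the medians lie between 0.03 and 0.14.

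Likeness to Irf7 across libraries was taken for the same list. The median r of 49 interferon-stimulated genes that averaged 50 normalised counts or more was 0.17, against 0.01 for all 11978 genes, and for deviations from the diet means it was -0.02. The 20 libraries share the diets, so the first value includes any difference between diets. Without the 2 libraries farthest from the median of Irf7 the list's median was 0.30 (0.01 for all genes), and over the 15 libraries not on 10% RPS it was 0.23 (0.01 for all genes). Lgals3bp, a secreted glycoprotein, had the highest r of the list (0.82), and it passed on adjusted p alone at 10% against 0% RPS (0.36 ± 0.11, adjusted p = 0.0246, DESeq2). Helz2, a helicase, and the galectin gene Lgals9 also passed on adjusted p alone, with 0.29 ± 0.09 and 0.44 ± 0.11 and r of 0.74 and 0.61. Sp100, a nuclear body protein, was lower on the same criterion (-0.32 ± 0.10), with an r of -0.70. These 4 genes were picked after their values were seen.

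Of 18 measured genes linked to interferon gamma, 1 was higher at 10% against 0% RPS and 0 were lower. This held with DESeq2 (0.525% of all genes were higher) and with edgeR (0.323% of all genes passed). The higher gene was Ido1, which encodes an enzyme that breaks down tryptophan, with 1.18 ± 0.26 (adjusted p = 0.00124, DESeq2, and 0.0385, edgeR). It did not pass without the 3 libraries with label numbers apart (0.91). Ido1 had 368, 380, 598, 640, and 726 normalised counts at 10% RPS, an order that does not follow Irf7, and its r was 0.45 over all libraries and -0.24 for deviations from the diet means. Psmb8, a subunit of the immunoproteasome, was picked after its values were seen and had 0.52 ± 0.13 on adjusted p alone (0.00626, DESeq2), with an r of 0.63. Gbp6 and Gvin1, GTPase genes of the interferon gamma response, had 0.62 ± 0.37 and -0.65 ± 0.30. Between 10% and 5% RPS 0 members of these lists other than Irf7 passed with DESeq2 or edgeR. The only gene of all that passed with DESeq2 (0.00796%) was Irf7 itself, and 0.00% passed with edgeR. That count could therefore not have been higher, and nothing is read from it. An unadjusted p under 0.05 was met there by 4.11% of all genes with DESeq2 and 3.72% with edgeR. Each tool gave 4 of 50 interferon-stimulated genes, 2 of 18 genes linked to interferon gamma, 1 of 18 sensing genes, and 1 of 7 other family members. Each also gave 0 of 12 receptor and signalling genes and 0 of 13 genes that restrain IRF7 or interferon signalling.

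Markers of immune cell types, in which Irf7 can be abundant, are given beside it. The macrophage and monocyte markers (9 of 11 measured) summed to 4885 to 8267 normalised counts at 0% RPS and 5368 to 6380 at 10% RPS, and the r of the log2 sum with Irf7 was 0.17. All 9 had a log2 fold change below 0 at 10% RPS, and 0 passed with DESeq2 or edgeR or had an unadjusted p under 0.05. Of the plasmacytoid dendritic cell markers 5 of 10 were measured, Siglech not among them, and their sum was mostly Klk1, a kallikrein gene at 16770 normalised counts at 0% RPS. The sum of the 5 ran from 15547 to 25685 at 0% RPS and from 21402 to 33293 at 10% RPS (r = 0.38). Klk1 was higher at 10% against 0% RPS on adjusted p alone (DESeq2). Without Klk1 the other 4 summed to 2069 to 3298 at 0% RPS and 2508 to 2961 at 10% RPS, with an r of -0.09. Of the T cell and NK cell markers 3 of 11 were measured (85 to 172 summed at 0% RPS, 80 to 164 at 10% RPS, r = -0.19). Of the B cell markers 3 of 9 were measured (116 to 292 and 177 to 406, r = 0.13). All 3 B cell markers had a log2 fold change above 0 at 10% RPS (median 0.62), against 1 of the T cell and NK cell markers. Of the B cell markers 0 passed, and 1 had an unadjusted p under 0.05 with DESeq2 and 0 with edgeR. Of the 5 neutrophil markers listed, 0 were found among the genes counted.

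The colon epithelium markers that define the tissue were abundant, with 12 of 13 measured. Their sum ran from 922295 to 1083412 normalised counts at 0% RPS and from 1121608 to 1639540 at 10% RPS, without overlap, and its r with Irf7 was 0.51. At 5% RPS the sum, at 1183560 to 1266456, also lay clear of 0% RPS, and at 2% RPS it ran from 967122 to 1347907. Among single genes, 1.37% lay wholly above 0% RPS at 10% RPS and 1.47% at 5% RPS. The sum weighs the most abundant markers most. The log2 fold changes of the 12 at 10% against 0% RPS ran from -0.43 to 0.63, with 11 above 0. Of the 12, 0 passed at 10% against 0% RPS with DESeq2 or edgeR, 7 had an unadjusted p under 0.05 with each tool (18.8% and 18.0% of all genes), and Epcam (0.19) and Krt20 (0.47) passed on adjusted p alone. The 7 smooth muscle markers summed to 124041 to 272829 at 0% RPS and 127312 to 215145 at 10% RPS, with an r of 0.16. The part of tissue composition in the level of Irf7 was not tested.

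The genes most like Irf7 over the 20 libraries were found from their likeness to it, measured as Pearson r of log2(normalised count + 1) over 11978 genes with a mean of at least 50, and 19 of them (0.159%) had an r of at least 0.8. Of the lists above, Lgals3bp, 1 of 49 interferon-stimulated genes, and Trim25, 1 of 18 sensing genes, were among the 19 but not among the 10 highest. The 20 points share the diets and, for each library, its depth and tissue make-up, so r is a description without a p.

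Ctsz, a lysosomal cathepsin, had an r of 0.89 and 3697, 2438, 3450, 2401, and 3108 normalised counts at 10% RPS. Gpd1, which makes glycerol 3-phosphate from a glycolysis product, had an r of 0.88 and 3272, 1762, 3000, 1789, and 2523. Both genes were high in replicates 1, 3, and 5 and low in replicates 2 and 4, as was Irf7. Reep3, a protein of the endoplasmic reticulum, had an r of 0.86. Mogat2, which rebuilds dietary fat into triglyceride in enterocytes, also had an r of 0.86, with 450, 240, 444, 195, and 368 normalised counts at 10% RPS and 84 to 208 at 0% RPS. H2-D1, a class I major histocompatibility gene, had an r of 0.86 and 20159, 14805, 19168, 15349, and 18378 normalised counts at 10% RPS. H2-D1 belongs to a family of near-identical genes, so its count is uncertain. Other genes of the top 10 were Mfsd12 (0.85), a transporter of lysosomes and pigment granules, Gla (0.85), the lysosomal alpha-galactosidase, Gstk1 (0.84), a glutathione transferase, and Fcho1 (0.84), which acts in endocytosis.

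**Figure D4:**
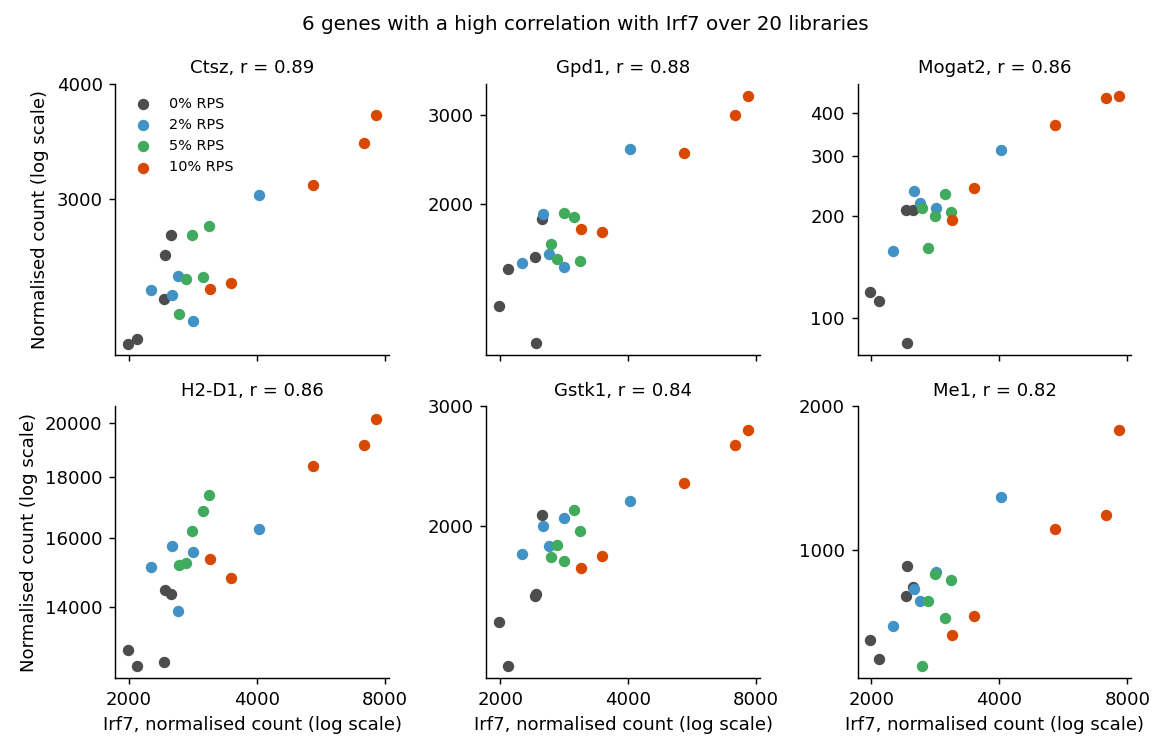
Normalised counts of 6 genes (y axes, log scale) against Irf7 (x axis, normalised counts, log scale), 1 point per library with colours for the diets and r over 20 libraries above each panel. In every panel 3 of the 10% RPS libraries lie at the upper right, and the other 2 lie among the libraries of the other diets. The 6 genes were picked from those of high r and are not the 6 highest. In Reep3 and Gla, which are not drawn, 10% RPS replicate 4 (Reep3, 2884) and replicate 2 (Gla, 511) lay above all libraries of the other diets.

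Of these 10 genes, Gpd1, Mogat2, and Fcho1 passed the adjusted p and fold at 10% against 0% RPS, with log2 fold changes of 0.77 ± 0.18, 1.21 ± 0.26, and 0.63 ± 0.17. With edgeR Mogat2 passed (adjusted p = 0.0314), and Gpd1 (0.0512) and Fcho1 (0.0665) did not. The 10 were chosen for their likeness to Irf7 in the same libraries, so nothing is read from how many passed. Without the 3 libraries with label numbers apart Gstk1 passed as well (0.60, against 0.50 with them). Mogat2 is on the same chromosome as Irf7 (chr7:98868291-98887830, GRCm39) but far from it. The 2 libraries farthest from the median of Irf7 were 10% RPS replicates 1 and 3, and without them the r of the 10 genes lay between 0.71 and 0.83. Over the 15 libraries not on 10% RPS it lay between 0.52 and 0.78. For deviations from the diet means it lay between 0.55 (Gla) and 0.89 (Ctsz). Spearman's rho over the 20 libraries was lower, at 0.63 to 0.84.

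The 2% RPS replicate with much Irf7 was 1 of the 20 libraries on which these genes were chosen, so its values for them are a description. This library had 3034 normalised counts of Ctsz, 2571 of Gpd1, and 311 of Mogat2, in each case above replicates 2 and 4 of the 10% RPS diet. Among the 15 libraries not on 10% RPS it held the most Irf7. It was also the highest of the 15 for 6 of the 10 genes, against 7.15% of all genes. The r over those 15 libraries was not taken without it.

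When the diet means were removed, the genes most like Irf7 were partly different. The 10 highest r for deviations from the diet means shared 4 genes with the list above, among them Ctsz, H2-D1, and Gstk1. The highest was Me1 (0.91), which encodes malic enzyme, a source of the NADPH used in fat synthesis, with 1789, 727.3, 1185, 666, and 1110 normalised counts at 10% RPS and 1294 in 2% RPS replicate 3. The others were Snx3, a protein of endosome sorting (0.86), Gadd45a, a stress gene (0.83), Tspan3, a membrane protein (0.83), Ctla2a, a cathepsin inhibitor (0.81), and Cystm1 (0.81). Gadd45a had an r of 0.40 over all libraries and a log2 fold change of 0.03 ± 0.15 at 10% RPS, so its likeness to Irf7 was the higher when diet means were removed.

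**Figure D5:**
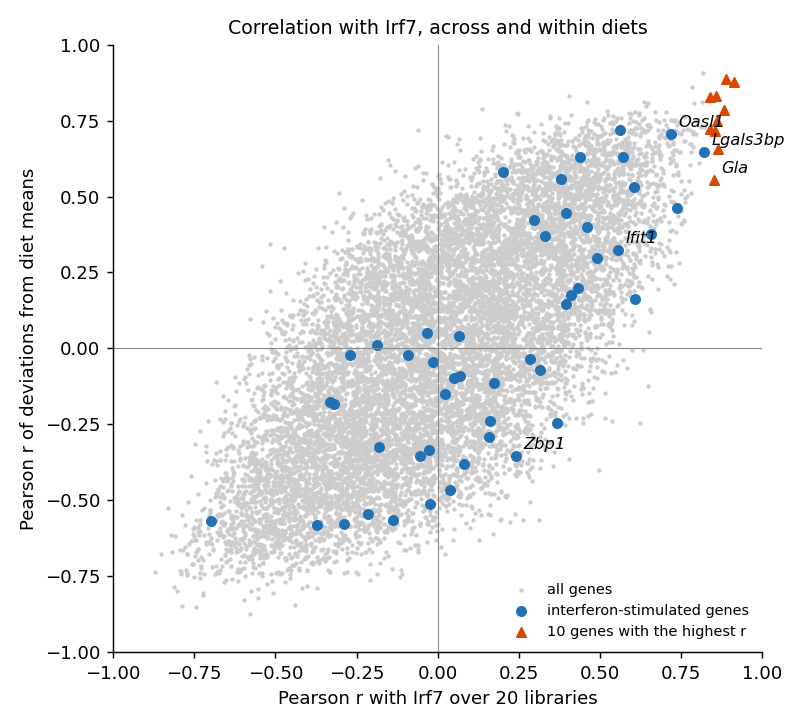
Pearson r with Irf7 over 20 libraries (x axis) and for deviations from the diet means (y axis), 1 point per gene for 11978 genes, with interferon-stimulated genes in blue and the 10 genes of highest r as orange triangles. The blue points spread widely (median 0.17 on the x axis and -0.02 on the y axis), and Zbp1 lies below 0 on the y axis.

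At the other end, 8 genes had an r of -0.8 or less. The 5 lowest were Or2m13 (-0.87), an olfactory receptor gene, Dus3l (-0.85), which modifies transfer RNA, Vps52 (-0.83), a part of a complex that tethers vesicles at the Golgi, Nrn1 (-0.82), and Cln6 (-0.82), a protein of the endoplasmic reticulum needed by lysosomes. Or2m13 had 203 ± 83.4 normalised counts at 0% RPS and 96.3 ± 41.01 at 10% RPS. Olfactory receptor genes form a large family of similar sequences, so this count is uncertain. Nrn1 had a log2 fold change of -0.59 ± 0.17 at 10% against 0% RPS (adjusted p = 0.0193, DESeq2) and did not pass without the 3 libraries with label numbers apart (-0.65). Without 10% RPS replicates 1 and 3 the 5 r values lay between -0.86 and -0.67.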

How the data were processed

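Per the labels and the methods of the study, RNA from the PC was made into stranded mRNA libraries and read as single ends of 50 bases. The authors trimmed the reads, then mapped and counted them on GRCm39 in CLC Genomics Workbench. The deposited table holds whole-number counts per Ensembl gene, not normalised and not pooled. The gene annotation, the use of strand, the treatment of multi-mapped reads, and the filter that left 12701 genes are not given in the sources used here. Each column carries the number found in 1 label, and 0 columns were left over. Replicates were numbered in label order within a diet and are not paired. Labels do not say whether the mice came from separate cages, so p-values measure the spread between these libraries.

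Gene names, positions, and lengths came from GENCODE M39 (12682 of 12701 identifiers found). DESeq2 (version 1.42.0, R version 4.3.3), the tool that the study names, was fitted here on all 20 libraries with diet as the only term. A gene passed when its p, adjusted by Benjamini-Hochberg, was at most 0.05 and its fold change, not shrunken, at least 1.5 in either direction. The edgeR quasi-likelihood test (version 4.0.16) was the alternative, and both were tested on simulated data. Adjusted p values are from DESeq2 unless edgeR is named. Correlations used log2(normalised count + 1) and carry no p. A floor of 3 counts equals 0.0855 to 0.146 CPM, and depth therefore does not limit Irf7. Tables were made in Python (version 3.11.15) with pandas (version 2.3.3).

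Irf7, the gene lists, and the tests were chosen with earlier results of these data known. Named genes were Irf7, the measured IRF family, its neighbours within 50000 bases, the 10 highest and 5 lowest genes by r, the 10 highest by r of deviations from diet means, and in each list the members that passed at 10% against 0% or 5% RPS and the 3 largest changes. Other members are named as examples of their role, and some genes that met the rule are not reported here. Alternatives were edgeR, TMM size factors, a filter of 10 counts in 5 libraries, only the 2 diets compared, no fold threshold, independent filtering off, omission of the 3 libraries with label numbers apart or of each library in turn, and, for r, variance-stabilised values, TMM-scaled log2 CPM, Spearman's rho, and a minimum mean of 10. Promoters are from the RefSeq table on GRCm38.p6.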

Additional observations from a re-analysis of the deposited data

Results flagged for a closer look

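In each diet the highest or lowest of the 5 libraries was compared with the rest by Dixon's criterion, over 204 groups of 51 named genes, and 13 groups had a library far from the other 4. Chance flags about 1 in 20 groups, and Irf7 had none in any diet. Its 2% RPS replicate 3, well above the other 4, came nearest, with a gap of 0.674 of the range against a critical value of 0.71. The 2% RPS library with the most Irf7, replicate 3, stood apart for Cdhr5 (39813 normalised counts), the neighbour of Irf7, for Mfsd12 (505), and for Jak2 (2140). Socs3 had a library apart in 3 diets, at 1546 in 0% RPS replicate 3, 1642 in 2% RPS replicate 5, and 1932 in 10% RPS replicate 2. Within the IRF family, Irf3 was at 2571 in 10% RPS replicate 1, the library with the most Irf7, and Irf9 was at 960 in 5% RPS replicate 3. In 5% RPS replicate 5 Sct was at 1000.1 and Gla at 507. The other values were Gadd45a at 962 in 0% RPS replicate 1, Or2m13 at 349 in 0% RPS replicate 5, and Gvin1 at 110.2 in 2% RPS replicate 4.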

How the results depend on the processing

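The log2 fold changes of Irf7 kept their direction and moved by less than their spread under every alternative. Leaving out each library in turn gave 1.07 to 1.37 at 10% against 0% RPS, 0.75 to 1.06 at 10% against 5%, 0.75 to 1.07 at 10% against 2%, 0.16 to 0.39 at 2% against 0%, and 0.27 to 0.35 at 5% against 0% RPS. The numbers of genes and of pathway list members (other than Irf7) that passed depended on the settings, and the cause was not tested. In the main fits 12561 genes were tested with DESeq2 and 12366 with edgeR. Without Irf7 the lists held 7, 18, 12, 13, 50, and 18 measured genes, and they overlap at Oasl1. No result is read from the list counts below, because the share of all genes is not given at every setting. With edgeR, 0, 7, and 40 genes passed at 2%, 5%, and 10% against 0% RPS and 0 at 10% against 5% or 2% RPS, with 0 list members at 5% and 1 at 10% against 0% RPS. With TMM size factors 0 genes passed at 10% against 5% and 1 at 10% against 2% RPS. With only the 2 diets compared, 4 genes passed at 10% against 5%, 22 genes and 1 list member at 10% against 2%, and 2 list members at 5% against 0% RPS. Without a fold threshold, 239 genes and 4 list members passed at 5% against 0% RPS, and 578 genes (4.60%) and 10 list members at 10% against 0% RPS. At 10% against 5% RPS 2 genes then passed, and at 10% against 2% RPS 18 did. Without the 3 libraries with label numbers apart, 67 genes and 0 list members passed at 10% against 0%, 2 genes at 10% against 5%, and 3 at 10% against 2% RPS.

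Leaving out 1 library in turn gave 1 to 10 genes at 2%, 24 to 104 at 5%, and 62 to 201 at 10% against 0% RPS, 0 to 3 at 10% against 5%, and 1 to 12 at 10% against 2% RPS. List members numbered 0 to 4 at 5%, 1 to 6 at 10% against 0% RPS, and 0 to 1 at 10% against 2% RPS. At 10% against 0% RPS, 201 genes and 6 list members passed without 0% RPS replicate 2, and 5 list members without 0% RPS replicate 3. At that contrast 1 list member passed without 0% RPS replicate 5, or 10% RPS replicate 3 or 5. The number of genes with an r of at least 0.8 was 9 without the 2 libraries farthest from the median of Irf7 and 11 to 39 when each library was left out, with 39 without 0% RPS replicate 2 and 11 without 10% RPS replicate 3. It was 17 without the 10% RPS libraries, an alternative added after the data were seen. Of the 10 genes with the highest r, 9 stayed in the top 10 with variance-stabilised values and 1 with Spearman's rho. No paired analysis was possible because the labels give the diets no shared replicate numbers. With 5 mice on each diet and a wide spread at 10% RPS, the order of neighbouring diets at 2% and 5% RPS is not resolved.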
